A study of Arabidopsis thaliana with 8 samples.

Results

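The genes described here are 3 photosystem genes of Arabidopsis thaliana, followed in whole green siliques, the seed pods of the plant. They are PSAE-1 (AT4G28750), LHCB4.1 (AT5G01530) and LHCB4.3 (AT2G40100). They were taken by name, with earlier results of these data known, and every probe annotated to them was used. The array table held 26912 probes, of which 14485 could be matched to 14228 distinct genes. The 3 genes had 4 probes, since LHCB4.1 had 2 of them (probe A and probe B), and all 4 had a value on all 8 slides.

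The study compared RNA from early siliques, 2 to 5 days after pollination (DAP), with RNA from a 90%-late sample, which was 6 to 10 DAP material with 10% early material added. The early sample was labelled with Cy5 and the 90%-late sample with Cy3 on every slide, so dye and stage cannot be told apart. Target was prepared in 4 ways with 2 slides each. These were unamplified (30 µg of total RNA), IVT (5 µg, 1 round of in vitro transcription), 2IVT (50 ng, 2 rounds) and PCR (50 ng, 20 cycles). The same pair of RNA samples was behind all 8 slides. In each amplified regime both slides also shared 1 amplification of the 90%-late sample, so the slides are technical replicates. The p-values measure the spread between slides and, where RNA was amplified, between amplifications of the early sample. They do not measure the spread between amplifications of the 90%-late sample or between plants. Regime and pair of slides cannot be told apart. Siliques hold wall, seed coat, endosperm and embryo, and in such whole-organ RNA, fewer cells of a type and less RNA per cell cannot be told apart.

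Photosystem I and photosystem II are the pigment-protein complexes of the chloroplast thylakoid that drive photosynthetic electron transport. Light is gathered by antenna proteins that bind chlorophyll and pass its energy to the reaction centre, and the walls and young seeds of green siliques hold photosynthetically active chloroplasts. PSAE-1 encodes PsaE, a stromal subunit of photosystem I at the side where ferredoxin docks. LHCB4.1 and LHCB4.3 encode isoforms of CP29, a minor antenna protein that sits between the photosystem II core and its outer antenna.

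Values are log2 ratios of early over 90%-late, so a positive value means a higher signal in the early sample. Because the late sample held 10% early material, a transcript found in early siliques alone could be at most 10-fold higher there, a log2 ratio of 3.32. The mean of each regime, and its difference from unamplified, was tested with limma over all probes, with Benjamini-Hochberg adjusted p-values and a threshold of 0.05. The slides held 22733 to 24403 values each, and their medians ran from 0.01 to 0.08. The probes passing the test came to 43.6% of those tested in the unamplified regime, 54.6% with IVT, 47% with 2IVT and 31.4% with PCR. In the unamplified regime 6180 probes were higher in the early sample and 4191 in the 90%-late sample, with IVT 7624 and 5405, with 2IVT 5833 and 4637, and with PCR 3756 and 3443. These splits depended on the scaling. When each slide was divided by its relative median they were 40 and 327 unamplified, 26 and 267 in IVT, 2083 and 2042 in 2IVT, and 6843 and 6394 in PCR.

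PSAE-1 was higher in the early sample in 3 of the 4 regimes, most with IVT in the values as deposited. Its log2 ratios were 0.30 and 0.31 on the unamplified slides, 1.79 and 1.77 with IVT, -0.07 and -0.05 with 2IVT, and 0.52 and 0.63 with PCR. Only the 2IVT slides lay below 0. In the unamplified regime the mean was 0.31 ± 0.01 (SD, n = 2), a 1.24-fold higher signal in the early sample (adjusted p = 0.0293 by limma), where 26% of all probes were called higher in the early sample.

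With IVT the mean of PSAE-1 was 1.78 ± 0.02 (SD, n = 2), a 3.44-fold higher early signal (adjusted p = 9.69e-08). In that regime 32% of all probes were called in this direction, and 1.33% had a mean at least as high. With 2IVT the mean was -0.06 ± 0.01 with a 95% interval from -0.28 to 0.16, and it did not pass (adjusted p = 0.668). With PCR the mean was 0.58 ± 0.08 (adjusted p = 0.00179), where 16.4% of all probes were called higher in the early sample.

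Measured against the unamplified regime, the log2 ratio of PSAE-1 rose by 1.48 (SE 0.14) with IVT, a 2.78-fold change of the ratio (adjusted p = 5.67e-05). In that difference 9.06% of all probes passed upwards and 8.05% downwards, and 0.721% differed by at least as much upwards. The difference was -0.36 (SE 0.14) with 2IVT (adjusted p = 0.105) and 0.27 (SE 0.14) with PCR (adjusted p = 0.207), and neither passed. In the 2IVT difference 8.78% of all probes passed upwards and 8.18% downwards. Where a slide was left out, its regime rested on the 1 remaining slide, which was assumed to vary like the other regimes. On that assumption the IVT call and its difference from unamplified kept their side of the threshold without any 1 slide, but both were lost when slides were divided by their relative median, at 0.87 (adjusted p = 0.107) and 0.68 (adjusted p = 1). That scaling put the PCR mean of PSAE-1 at 1.91 (adjusted p = 0.000576), above its IVT mean, so the order of these regimes turned. The small unamplified call was lost without either unamplified slide (adjusted p = 0.16 without replicate 1 and 0.19 without replicate 2), without either IVT slide (adjusted p = 0.0563) and with each slide centred on its median (adjusted p = 0.0762).

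**Figure D1:**
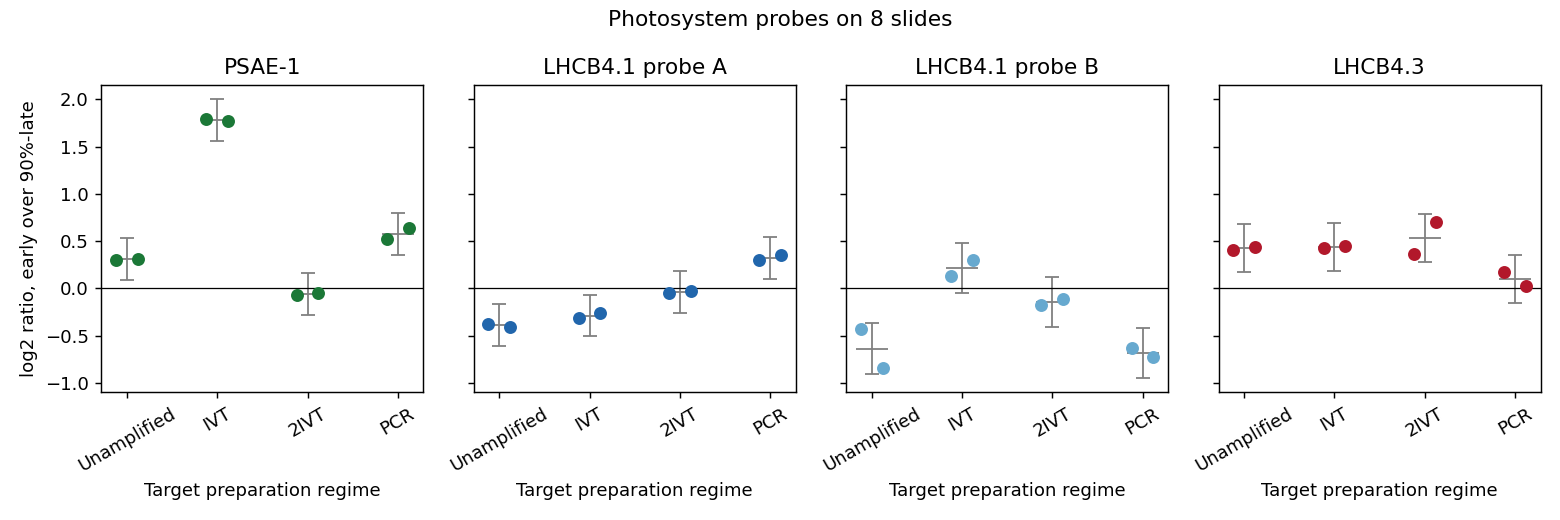
Log2 ratio of early over 90%-late (vertical axis) for each of the 4 probes (panels) in the 4 target preparation regimes (horizontal axis). Points are the 2 slides of a regime and grey bars are the regime mean with its 95% interval from limma; PSAE-1 stands at 1.79 and 1.77 with IVT and near 0 with 2IVT, and LHCB4.3 is above 0 on all 8 slides.

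LHCB4.1 was higher in the 90%-late sample when RNA was not amplified, by both of its probes. Probe A gave -0.37 and -0.41 on the unamplified slides, -0.32 and -0.26 with IVT, -0.05 and -0.03 with 2IVT, and 0.30 and 0.35 with PCR. Its slides lay below 0 in all regimes but PCR, where both lay above 0. Probe B gave -0.43 and -0.84 on the unamplified slides, 0.13 and 0.30 with IVT, -0.17 and -0.12 with 2IVT, and -0.64 and -0.73 with PCR. Here the IVT slides were the ones above 0, so the 2 probes of this gene were on the same side of 0 on the unamplified and 2IVT slides and on opposite sides with IVT and with PCR.

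In the unamplified regime the mean was -0.39 ± 0.03 for probe A (SD, n = 2; adjusted p = 0.00857) and -0.64 ± 0.29 for probe B (adjusted p = 0.00149), which is a 1.31-fold and a 1.56-fold higher signal in the 90%-late sample. Of all probes, 17.6% were called in that direction. Probe A lost its call without either unamplified slide (adjusted p = 0.0725 without replicate 1 and 0.103 without replicate 2), and probe B lost it without replicate 2 (-0.43, adjusted p = 0.0725).

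With IVT probe A was also called higher in the 90%-late sample, at -0.29 ± 0.04 (adjusted p = 0.0294), against 22.7% of all probes in this direction, and probe B stood at 0.21 ± 0.12 (adjusted p = 0.162). Without either IVT slide the call of probe A was lost (adjusted p = 0.237 without replicate 1 and 0.153 without replicate 2). With 2IVT neither probe passed, at -0.04 ± 0.02 for probe A (adjusted p = 0.774) and -0.15 ± 0.04 for probe B (adjusted p = 0.358). With PCR both passed, in opposite directions. Probe A was higher in the early sample at 0.32 ± 0.04 (adjusted p = 0.0313) and probe B was higher in the 90%-late sample at -0.68 ± 0.07 (adjusted p = 0.00203). In that regime 16.4% of all probes were called higher in the early sample and 15% in the 90%-late sample. The probe A call was lost without either PCR slide (adjusted p = 0.1 without replicate 1 and 0.153 without replicate 2) and without either IVT slide (adjusted p = 0.061), while that of probe B kept its side of the threshold without any 1 slide.

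Against the unamplified regime, probe A rose by 0.71 (SE 0.14) with PCR (adjusted p = 0.00519), where 9.8% of all probes were called higher. Probe B rose by 0.85 (SE 0.17) with IVT (adjusted p = 0.00649), a difference that was lost without unamplified replicate 2 (0.64, adjusted p = 0.0658) or IVT replicate 2 (0.77, adjusted p = 0.0775). The other differences did not pass. For probe A they were 0.10 with IVT (adjusted p = 0.677) and 0.35 with 2IVT (adjusted p = 0.115), and for probe B they were 0.49 with 2IVT (adjusted p = 0.0744) and -0.05 with PCR (adjusted p = 0.884).

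The difference between the probes of LHCB4.1, probe A minus probe B, averaged 0.21 ± 0.58 (SD, 8 slides; two-sided exact sign-flip test, p = 0.305). By regime its mean was 0.25, -0.50, 0.11 and 1.0 in the unamplified, IVT, 2IVT and PCR regimes. Set beside all genes with 2 named probes, the size of the difference was common in the unamplified regime, where 47.8% of 159 genes differed at least as much. With IVT that share was 23.1% of 156 genes, with 2IVT 80.1% of 141 and with PCR 5.52% of 145. Which part of the transcript each probe matches, and whether either also binds a close relative such as LHCB4.2, was not tested.

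LHCB4.3 was higher in the early sample on every slide. Its log2 ratios were 0.41 and 0.44 on the unamplified slides, 0.42 and 0.45 with IVT, 0.36 and 0.70 with 2IVT, and 0.18 and 0.02 with PCR. The PCR slides lay below all the others, a placing whose share over all probes was not counted, and the other 3 regimes overlapped. The means were 0.43 ± 0.02 in the unamplified regime (SD, n = 2; adjusted p = 0.0111), 0.44 ± 0.02 with IVT (adjusted p = 0.0073) and 0.53 ± 0.24 with 2IVT (adjusted p = 0.00282). These are 1.34-fold, 1.35-fold and 1.44-fold higher signals in the early sample, in regimes where 26%, 32% and 26.2% of all probes were called in that direction.

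With PCR the mean of LHCB4.3 was 0.10 ± 0.11 and did not pass (adjusted p = 0.532). No difference from the unamplified regime passed for this gene. They were 0.01 with IVT (95% interval -0.34 to 0.37), 0.11 with 2IVT (-0.25 to 0.46) and -0.32 with PCR (-0.68 to 0.03). The unamplified call was lost without either of its slides (adjusted p = 0.0864 without replicate 1 and 0.116 without replicate 2), the IVT call without either IVT slide (adjusted p = 0.0748 and 0.0953), and the 2IVT call without 2IVT replicate 2 (0.36, adjusted p = 0.0579).

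By the mean of both LHCB4.1 probes, the measured CP29 genes differed in their early-over-late ratio on these slides. Within each slide, the log2 ratio of LHCB4.1 (mean of both probes) minus that of LHCB4.3 was -0.81 and -1.07 on the unamplified slides, -0.52 and -0.43 with IVT, -0.48 and -0.77 with 2IVT, and -0.35 and -0.22 with PCR. All 8 slides lay below 0, so LHCB4.3 leaned more to the early sample than the mean of both LHCB4.1 probes in every hybridization. The mean difference was -0.58 ± 0.28 (SD, 8 slides), a 1.49-fold difference between the ratios. A two-sided exact sign-flip test over the slides gave p = 0.0078, the smallest it can give. The pair was chosen with earlier results of these data known, so the p-values of this contrast are not independent support. Slides of 1 regime share target, and over the 4 regime means the same test can go no lower than 0.125, the value it gave.

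By regime the difference was -0.94 ± 0.18 in the unamplified regime (SD, n = 2), -0.47 ± 0.06 with IVT, -0.62 ± 0.21 with 2IVT and -0.28 ± 0.09 with PCR. With probe A alone it was -0.47 ± 0.45 (exact p = 0.0391) and lay below 0 on 6 of 8 slides, the PCR slides being at 0.12 and 0.32. With probe B alone it was -0.69 ± 0.35 (exact p = 0.0078) and lay below 0 on 8 of 8 slides, from -1.29 to -0.15. With PCR the direction of the contrast therefore depended on the probe.

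**Figure D2:**
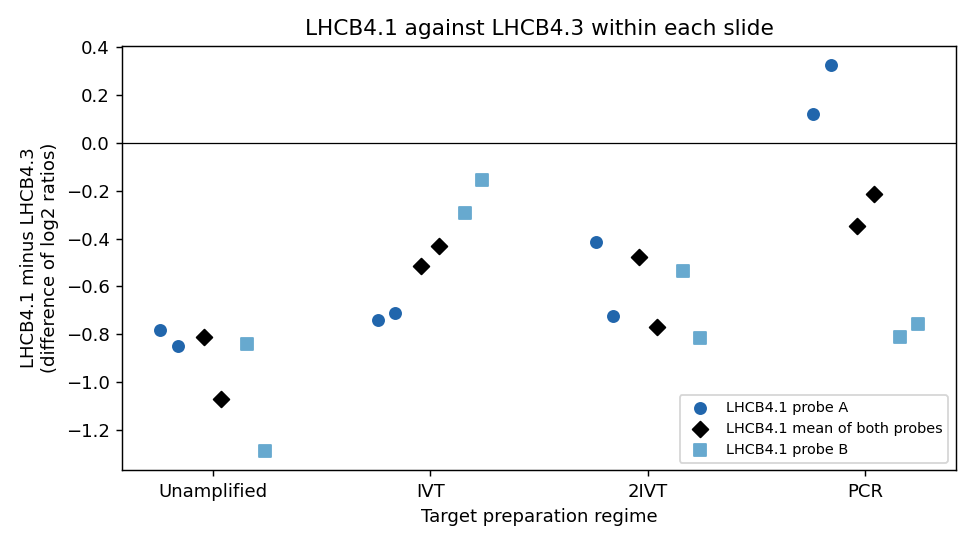
Difference of log2 ratios, LHCB4.1 minus LHCB4.3, within each of the 8 slides (vertical axis), by regime (horizontal axis), for probe A (circles), probe B (squares) and their mean (diamonds). The mean of both probes is below 0 on all 8 slides, and the points above 0 are probe A on the PCR slides, at 0.12 and 0.32.

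Of 48 photosystem genes listed, 9 had a named probe and 8 had values: the 3 genes above and 5 others. The named probe of LHCB4.2, the third CP29 gene, had no value, and no antenna gene of photosystem I was among the named probes. Of the 5 others, 2 were called higher in the early sample in the unamplified regime, 4 with IVT, 1 with 2IVT and 0 with PCR, against 26%, 32%, 26.2% and 16.4% of all probes. None of the 5 was called higher in the 90%-late sample in any regime, although with each slide centred on its median 1 of them was with IVT. Their median log2 ratio was -0.15, 0.53, 0.04 and -0.07 in the 4 regimes, beside 0.07, 0.08, 0.04 and 0.01 over all probes tested. With slides divided by their relative median, the counts called higher in the early sample were 0, 0, 0 and 1, and 1 gene was called higher in the 90%-late sample with PCR. With slides scaled to the same median absolute value, the counts called higher in the early sample were 2, 3, 1 and 0.

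In photosystem I, PSAN, a lumenal subunit on the plastocyanin side, differed widely between slides. It gave 0.06 and -0.37 unamplified, 1.4 and 0.19 with IVT, 0.45 and -0.03 with 2IVT, and 0.48 and 0.17 with PCR. Its IVT mean of 0.80 ± 0.85 passed (adjusted p = 0.0147), although the 2 IVT slides stood far apart. In the core of photosystem II, PSB27, a lumenal assembly factor, gave 0.60 and 0.86 unamplified (adjusted p = 0.000385), 0.91 and 1.04 with IVT (adjusted p = 2.92e-05), 0.58 and 0.43 with 2IVT (adjusted p = 0.00362), and 0.01 and -0.13 with PCR (adjusted p = 0.716). Thus PSB27, like LHCB4.3, passed towards the early sample in all regimes but PCR, a pattern whose share over all probes was not counted. The fall of the PSB27 log2 ratio from unamplified to PCR passed (-0.79, SE 0.16, adjusted p = 0.00596), where 11.1% of all probes were called lower. That of LHCB4.3 did not pass (-0.32, adjusted p = 0.184).

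PSBW and PSBY, small subunits of photosystem II, did not pass without amplification. PSBW gave -0.21 and -0.18 unamplified, -0.25 and -0.20 with IVT, -0.07 and -0.01 with 2IVT, and -0.12 and -0.02 with PCR, and passed in no regime. PSBY gave -0.19 and -0.19 unamplified, 0.07 and 1.0 with IVT (adjusted p = 0.0371), 0.19 and -0.11 with 2IVT, and 0.07 and -0.43 with PCR. In the antenna, LHCB1.5, a protein of the major trimeric complex, gave 0.50 and 0.16 unamplified (adjusted p = 0.0463), 0.51 and 0.48 with IVT (adjusted p = 0.00459), -0.24 and -0.04 with 2IVT, and -0.15 and -0.34 with PCR. Its log2 ratio was lower with PCR than unamplified by more than the slides' spread (-0.57, SE 0.17, adjusted p = 0.0355), where 11.1% of all probes were called lower.

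Across a wider set, 119 other photosynthesis genes were listed and 17 had values, the 5 photosystem genes included. In the unamplified regime 6 were called higher in the early sample and 1 in the 90%-late sample. With IVT these counts were 10 and 1, with 2IVT 1 and 2, and with PCR 5 and 2. The shares of all probes called in these directions were 26% and 17.6% unamplified, 32% and 22.7% for IVT, 26.2% and 20.8% for 2IVT, and 16.4% and 15% for PCR. With slides divided by their relative median the counts were 0 and 1, 0 and 0, 0 and 0, and 9 and 4. With slides scaled to the same median absolute value they were 6 and 1, 8 and 1, 1 and 2, and 6 and 3. The median log2 ratio of the 17 genes as deposited was 0.02, 0.45, -0.04 and 0.24 in the 4 regimes, beside 0.07, 0.08, 0.04 and 0.01 over all probes.

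RCA, which encodes Rubisco activase, also stood highest with IVT. It gave 0.21 and -0.17 unamplified, 1.91 and 2.71 with IVT (adjusted p = 7.74e-07), 0.01 and 0.02 with 2IVT, and 0.33 and 0.43 with PCR (adjusted p = 0.111). Its rise from unamplified to IVT was 2.29 (SE 0.24, adjusted p = 0.000103). Of 20638 probes with values on all slides, 544 had an IVT mean of at least 1.5. Of these, 13 (2.39%) also had a 2IVT mean within 0.15 of 0, and PSAE-1 and RCA were the 2 listed photosynthesis genes among the 13. These limits were chosen after the values were seen, so the place of PSAE-1 among the 13 tests nothing.

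**Figure D3:**
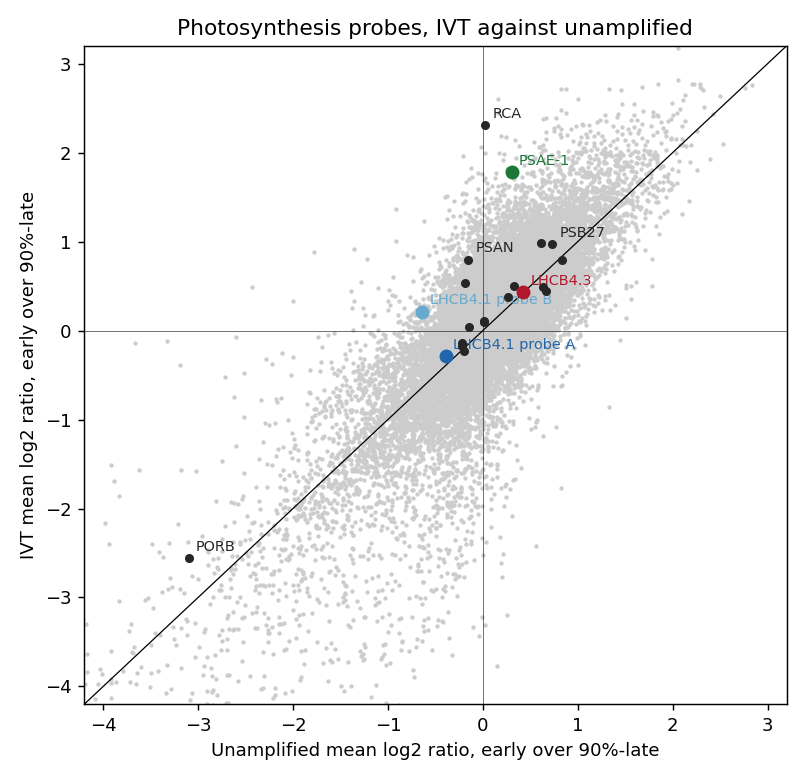
Mean log2 ratio of early over 90%-late with IVT (vertical axis) against the unamplified mean (horizontal axis) for all probes (grey), the 4 probes of the 3 genes (coloured) and the other photosynthesis probes (black); the diagonal marks equal values and 214 of 23174 probes lie outside the axes. PSAE-1 (0.31 and 1.78) and RCA (0.02 and 2.31) lie far above the diagonal, and LHCB4.3 (0.43 and 0.44) lies on it.

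Of the other carbon fixation genes, SBPASE, sedoheptulose bisphosphatase of the Calvin cycle, gave 0.76 and 0.92 unamplified, 1.26 and 0.33 with IVT, -0.12 and -0.06 with 2IVT, and 1.09 and 1.01 with PCR, and it passed in all regimes but 2IVT. PRK, phosphoribulokinase of the same cycle, gave 0.24 and 0.28 unamplified (adjusted p = 0.0692), 0.26 and 0.50 with IVT (adjusted p = 0.0102), -0.09 and -0.08 with 2IVT, and 0.63 and 0.54 with PCR (adjusted p = 0.00232). In the electron transport list, ATPC1, the gamma subunit of the chloroplast ATP synthase, stood at -0.22 unamplified (adjusted p = 0.0953) and passed towards the early sample with PCR alone, at 0.53 ± 0.05 (adjusted p = 0.00302). SBPASE, PRK and ATPC1, like PSAE-1 and RCA, were near 0 on both 2IVT slides.

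Chlorophyll synthesis held the largest value of the set in the other direction. PORB, a light-dependent protochlorophyllide oxidoreductase, gave -3.15 and -3.05 unamplified, -2.58 and -2.53 with IVT, -0.86 and -0.17 with 2IVT, and -1.27 and -1.07 with PCR, and it was called higher in the 90%-late sample in every regime. Against it, GSA1 and CHLI2, which act early in the pathway and in magnesium chelation, were higher in the early sample in the unamplified regime, at 0.67 ± 0.18 (adjusted p = 0.00423) and 0.62 ± 0.03 (adjusted p = 0.000604). Both also passed with IVT, and neither passed with 2IVT or PCR, where the PCR slides of CHLI2 were at -0.22 and -0.35. Of the 5 measured genes of this list, 2 did not pass in the unamplified regime. Of the LIL3 proteins, which are related to the antenna and take part in chlorophyll synthesis, LIL3:1 was at 0.63 ± 0.13 unamplified (adjusted p = 0.00127), and LIL3:2 was at -0.15 ± 0.09 (adjusted p = 0.371). LIL3:2 passed towards the early sample with PCR alone (0.48 ± 0.34, adjusted p = 0.0148). NOL, a chlorophyll b reductase of chlorophyll breakdown, was at -0.22 ± 0.10 unamplified (adjusted p = 0.257) and passed with 2IVT alone (-0.44 ± 0.45, adjusted p = 0.0282).

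The 2IVT slides had many photosynthesis probes close to 0. With a window of 0.15 on both slides, chosen after the values were seen, 10 of the 21 photosynthesis probes lay within it with 2IVT, beside 12.3% of all probes. In the unamplified, IVT and PCR regimes 1, 1 and 2 of the 21 did, beside 15.0%, 13.3% and 12.9% of all probes. Of the 4 probes of PSAE-1, LHCB4.1 and LHCB4.3, 2 were within the window with 2IVT and 0 in the other regimes.

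**Figure D4:**
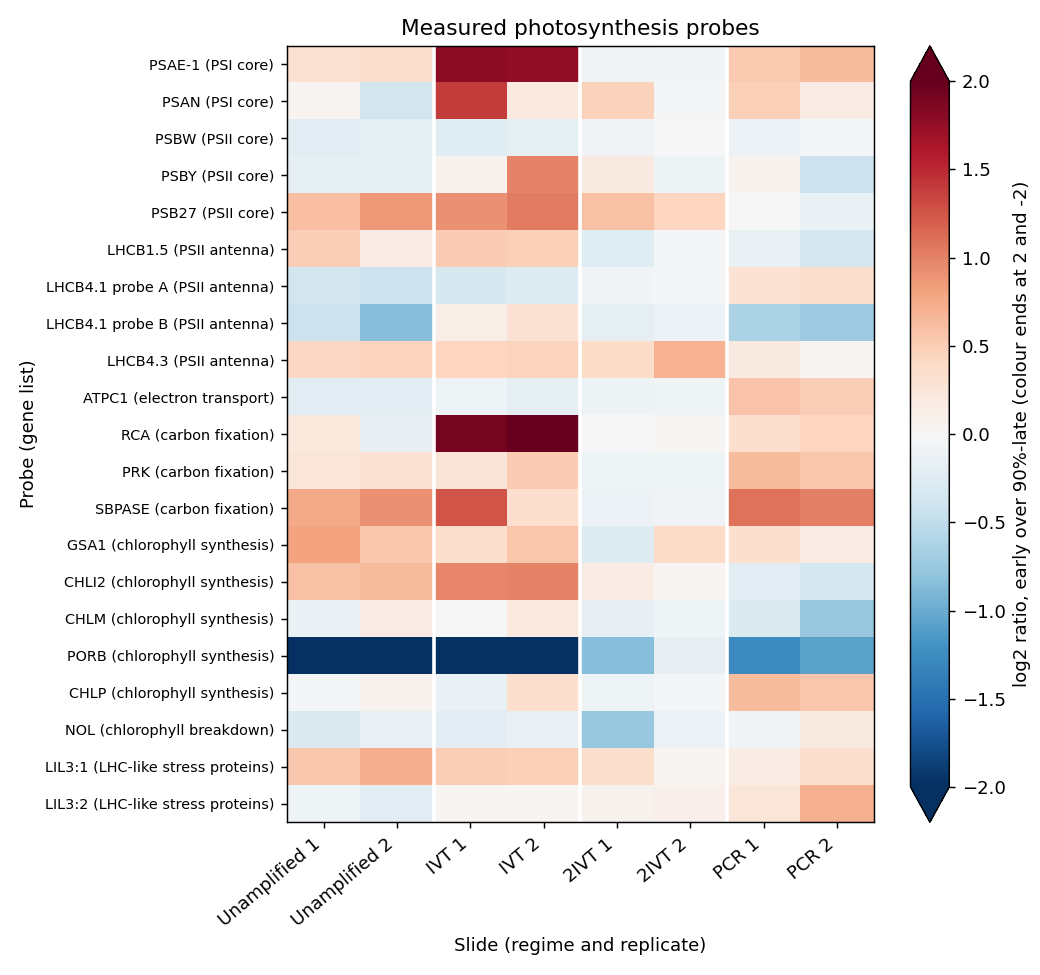
Log2 ratio of early over 90%-late (colour; red is higher in early, blue is higher in 90%-late, and colours end at 2 and -2) for the 21 photosynthesis probes with values (rows, with their gene list) on the 8 slides (columns). PSAE-1 and RCA are deep red on the IVT slides, PORB is deep blue on the unamplified and IVT slides, and most rows are pale on the 2IVT slides.

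Markers of other tissues in the silique moved between the samples as well, though not all of them in every regime. Of 11 listed seed maturation genes, 4 had values: OLEO3, OLEO4, ALPHA-VPE and BETA-VPE. They were all called higher in the 90%-late sample in every regime in which they were tested, 3 of 3 in the unamplified regime and 4 of 4 in each of the others, with an unamplified median of -6.11 beside 0.07 over all probes. The marker lists were chosen with earlier results of these data known, so their calls are not independent support. Of all probes 17.6% were called in this direction unamplified, 22.7% for IVT, 20.8% for 2IVT and 15% for PCR. OLEO4, an oleosin of oil bodies, was the lowest at -8.98 ± 0.12. ALC, a valve margin regulator and the 1 silique wall marker measured, was higher in the early sample at 0.44 ± 0.11 unamplified (adjusted p = 0.00832). It also passed in that direction with 2IVT and PCR, but not with IVT (0.18, adjusted p = 0.204). The seed coat markers BAN and DFR, enzymes of flavonoid synthesis, were both higher in the early sample in the unamplified regime, at 0.34 ± 0.05 (adjusted p = 0.0218) and 0.66 ± 0.07 (adjusted p = 0.000374). There 26% of all probes were called in this direction. With IVT BAN passed (1.45) and DFR did not (0.25, adjusted p = 0.0549). Neither passed with 2IVT (-0.07 and -0.03) or with PCR (0.19 and 0.27). The part of these markers in the values of PSAE-1, LHCB4.1 and LHCB4.3 was not tested.

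The nearest other named probes over the 8 slides were looked up for each of the 3 profiles. Among so many probes some must lie near, and no background distance was computed. Likeness was measured as the root mean square difference of the log2 ratios among 11303 other named probes with 8 values. Nearest to PSAE-1 were BAN (0.27), ALDH11A3 (0.28) and AT5G39530 (0.30). Like PSAE-1, BAN was highest with IVT, at 1.45 against 0.34 unamplified, -0.07 with 2IVT and 0.19 with PCR. PSAE-1 itself was at 0.58 with PCR. AT5G39530 was at 0.46 with 2IVT, where PSAE-1 was at -0.06. Nearest to the mean of both LHCB4.1 probes, a profile chosen after the values were seen, were AT4G04420, AT1G61770 and EXLA1 (0.11 each). Nearest to LHCB4.3 were AT5G27830 (0.09), AT1G78060 and AT5G28500 (0.10 each). By this measure PSAE-1 had no neighbour as near as those of the antenna genes, but the measure also depends on how widely a profile ranges. The Pearson correlations of these neighbours over the 8 slides were 0.94 to 0.98 for PSAE-1. They were 0.85 to 0.90 for LHCB4.1 and 0.86 to 0.94 for LHCB4.3.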

How the data were processed

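Two-colour long-oligonucleotide slides (Operon v1 Arabidopsis set) were hybridized with Cy5-labelled early and Cy3-labelled 90%-late target, 8 slides in all. The deposited values are log2 ratios, 1 for each probe on each slide, which the authors normalized with elements of SNOMAD by global mean, by local mean over the slide surface and by local mean over intensity. The log base and the direction are not stated with the values. Both were read off the dye labels and the 10-fold limit of the design: in the unamplified mean 1 probe lay beyond 10-fold towards early and 202 towards late. Whether low spots were filled in or saturated spots replaced in these values is not given, and intensities, probe sequences and promoter sequences were not used here. No further normalization was applied.

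Probes were named through the platform annotation and a RefSeq gene table. Of 26912 probes, 12373 had no symbol. All probes entered 1 limma fit (lmFit, eBayes; R 4.3.3, limma 3.58.1; prior degrees of freedom 6.65) with the regime as factor. Each p was adjusted over all probes with values on both slides (all 4 for a difference). The fit was tested on simulated data. The LHCB4.1 contrast used an exact sign-flip test (Python 3.11.15, numpy 2.4.6, pandas 2.3.3; plots with matplotlib 3.10.9).

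Named genes were the 3 genes, every measured gene of the 4 photosystem lists, of each other list up to 3 genes with the largest unamplified mean that passed, all genes of lists with up to 3 measured, and the 3 nearest profiles of each gene. CHLP was named after its values were seen. The members and lists were chosen with earlier results of these data known. Alternatives were centring, 2 scalings, separate fits, complete probes, robust eBayes, slide weights, a replicate block and leaving out each slide. Same-numbered slides did not deviate together (correlations of replicate differences from -0.06 to 0.03).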

Additional observations from a re-analysis of the deposited data

Results flagged for a closer look

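Differences from the unamplified regime passed the test for several photosynthesis genes, which is to say that the early-over-late log2 ratio was not the same in both regimes. Each is given as a difference of log2 ratios, and the cause was not tested. Of all probes, 17.1% passed in either direction for IVT, 17% for 2IVT and 20.9% for PCR. Of the 17 photosynthesis genes other than PSAE-1, LHCB4.1 and LHCB4.3, 1 passed upwards and 0 downwards with IVT. These counts were 1 and 2 with 2IVT, and 4 and 3 with PCR. After IVT the ratio was higher for PSAE-1 (1.48, adjusted p = 5.67e-05), for LHCB4.1 probe B (0.85, adjusted p = 0.00649) and for RCA (2.29, adjusted p = 0.000103). After 2IVT it was lower for SBPASE (-0.93, adjusted p = 0.027) and CHLI2 (-0.52, adjusted p = 0.031) and higher for PORB (2.59, adjusted p = 2.16e-05).

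After PCR the ratio was higher for LHCB4.1 probe A (0.71, adjusted p = 0.00519), ATPC1 (0.75, adjusted p = 0.00406), PORB (1.93, adjusted p = 0.000103), LIL3:2 (0.62, adjusted p = 0.0289) and CHLP, the geranylgeranyl reductase of chlorophyll synthesis (0.58, adjusted p = 0.0383). It was lower for PSB27 (-0.79, adjusted p = 0.00596), LHCB1.5 (-0.57, adjusted p = 0.0355) and CHLI2 (-0.90, adjusted p = 0.00152).

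LHCB4.1 probe A minus LHCB4.3 was 0.12 and 0.32 on the PCR slides and below 0 on the other 6 slides, a difference between regimes that was not tested.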

How the results depend on the processing

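Of 436 alternative values of the 3 genes, 34 lost a call and 2 gained one, and 10 had the opposite sign, all of them differences from unamplified that had not passed. The alternative first listed named limma's scale method, which on a plain matrix divides each slide by its relative median (factors 0.485 to 3.68, since the medians lie near 0). After those values were seen, scaling to the same median absolute value (factors 0.81 to 1.22) was added, because it is what the listed wording describes. Both are given. Under the relative-median scaling PSAE-1 was at 0.19 unamplified (adjusted p = 0.835), 0.87 with IVT (adjusted p = 0.107), 0.68 for IVT minus unamplified (adjusted p = 1) and 1.72 for PCR minus unamplified (adjusted p = 0.00789, gained). LHCB4.1 probe A was at -0.24 unamplified (adjusted p = 0.56) and -0.14 with IVT (adjusted p = 0.802). Probe B was at -0.39 unamplified (adjusted p = 0.526), 0.49 for IVT minus unamplified (adjusted p = 1) and -1.86 for PCR minus unamplified (adjusted p = 0.0072, gained). LHCB4.3 was at 0.26 unamplified (adjusted p = 0.497), 0.21 with IVT (adjusted p = 0.593) and 0.51 with 2IVT (adjusted p = 0.0508). Probes called over the table were 40 higher and 327 lower unamplified, 26 and 267 with IVT, 2083 and 2042 with 2IVT, and 6843 and 6394 with PCR. Under median absolute scaling the 1 call lost was LHCB4.1 probe A with IVT (-0.24, adjusted p = 0.0742). Centring lost PSAE-1 unamplified (0.24, adjusted p = 0.0762). Probe A with PCR (0.32) lost its call with separate fits (adjusted p = 0.0844) and slide weights (adjusted p = 0.0624). The labels' replicate number as a block changed no call of the 3 genes, such as PSAE-1 with IVT (1.78, adjusted p = 6e-07). The difference of LHCB4.1 and LHCB4.3 kept its side in all 17 alternatives, but centring and scaling cannot turn its sign within a slide and say nothing of its stability. Over the 4 regime means the exact p was 0.125, the smallest possible. Leaving out each slide in turn, with the lone slide of that regime assumed to vary like the others, lost calls of PSAE-1 unamplified (0.30 to 0.31), probe A unamplified (-0.41 to -0.37), with IVT (-0.32 to -0.26) and with PCR (0.30 to 0.35), probe B unamplified (-0.84 to -0.43) and for IVT minus unamplified (0.64 to 1.06), and LHCB4.3 unamplified (0.41 to 0.44), with IVT (0.42 to 0.45) and with 2IVT (0.36 to 0.70). Counts over all probes then ran from 3549 to 6783 higher and 2772 to 4520 lower unamplified, 4985 to 8085 higher with IVT, and 1904 to 4325 higher and 1794 to 3887 lower with PCR. No depth limit can be given, since signal over background was not used here.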
